A study of Mus musculus with 2 samples.

Results

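The imprinted growth genes described here are Igf2, H19, Cdkn1c, Dlk1, Meg3, Rian, Peg3, Plagl1, Mest and Grb10, 10 of the 32285 genes counted. They were taken by symbol from the gene list of the files, and all 10 were found. Single-cell RNA sequencing of kidney on postnatal day 0 gave counts of UMIs (unique molecular identifiers, tags that mark single captured RNA molecules). Both libraries, called replicate 1 and replicate 2, carry the genotype Rbpj c/+ ; Foxd1cre/+, which pairs a conditional Rbpj allele with wild type and adds a Cre recombinase driven by Foxd1, a gene of the renal stroma lineage. With no other genotype to set beside it, the levels below belong to this genotype and no effect of it could be tested. Recombination of the Rbpj allele was not measured. In cells of the Foxd1 lineage, cell type and recombination therefore cannot be told apart. The labels do not say whether the libraries came from separate animals. The p-values measure only how counts summed per cell class vary between these libraries beyond a shared library difference, pooled over classes. That spread may be technical.

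Barcodes counted as cells from 3000 UMIs and 500 genes up, with a mitochondrial share of 20% or less, and after removal of predicted doublets 5285 cells of replicate 1 and 4065 of replicate 2 were kept. Of the barcodes that passed, 6 were the same string in both libraries. Each cell was placed in a class from fixed marker genes, which did not include the imprinted growth genes. Leaving out erythroid-like cells, 11 classes had 20 cells or more in each library: nephron progenitor-like (576 and 344 cells in replicates 1 and 2), early nephron-like (412 and 205), podocyte-like (358 and 193), proximal tubule-like (403 and 266), loop of Henle or distal tubule-like (409 and 498, below called distal tubule-like), ureteric or collecting duct-like (192 and 183), intercalated-like (119 and 79), stroma-like (580 and 514), mural-like (359 and 294), endothelial-like (680 and 590) and immune-like (141 and 80). No class was given to 970 and 726 cells. Counts were summed per class and library, which gave 1130414 to 18258178 UMIs per sum, and levels are in CPM, the counts scaled to a common total. Cells that matched adrenal cortex markers numbered 2 and 1, and none matched chromaffin markers.

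Imprinted genes are transcribed mainly from a single parental copy, chosen by DNA methylation set in the egg or sperm. Igf2, Dlk1, Peg3, Plagl1 and Mest are expressed from the paternal copy, and H19, Cdkn1c, Meg3, Rian and, outside the nervous system, Grb10 from the maternal copy. Several of them set fetal growth: Igf2 is a growth factor, Cdkn1c (p57) an inhibitor of cyclin-dependent kinases, and Grb10 an adaptor that restrains insulin and IGF receptor signalling. The counts do not separate the parental copies, so every value below is the sum of both.

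The genes were high in stroma-like, mural-like and mostly in endothelial-like cells. They were low in immune-like cells and in distal tubule-like cells, the class that also takes in the loop of Henle. Of 110 tests of a gene in a class against the mean of the other classes, 81 passed the threshold, with 46 higher and 35 lower, against 48.8% of all gene-by-class tests. These used edgeR's quasi-likelihood test with the library as a block and Benjamini-Hochberg adjustment over 18029 genes, at 0.05. All 10 genes were higher in stroma-like cells, where 26.1% of all tested genes were called higher, and all 10 were higher in mural-like cells, where 24.0% were. The median log2 fold change of the 10 genes was 2.96 in stroma-like cells and 1.92 in mural-like cells, and that of all tested genes was -0.02 and -0.05. In immune-like cells 7 were lower and none was higher, against 22.8% called lower among all genes. In distal tubule-like cells 6 were lower and none was higher, against 19.5%. In endothelial-like cells 8 were higher and none was lower, against 28.1% called higher and 52.3% called at all. The count was 10 in nephron progenitor-like cells (5 higher, 5 lower), against 53.2% of all genes; of these, H19 (adjusted p = 0.043 by edgeR), Dlk1 (0.049), Meg3 (0.049) and Rian (0.049) were called in only 5 to 7 of 12 alternatives. It was 7 in podocyte-like cells (4 higher, 3 lower), against 48.7%. It was 6 in early nephron-like cells (4 higher, 2 lower), against 52.0%, and 6 in proximal tubule-like cells (2 higher, 4 lower), against 56.8%. Ureteric or collecting duct-like cells had 6 (2 higher, 4 lower), against 37.4%, and intercalated-like cells 5 (1 higher, 4 lower), against 48.5%. In either direction all genes were called at 48.4% in stroma-like, 45.3% in mural-like, 45.0% in immune-like and 48.9% in distal tubule-like cells. The 10 genes were chosen with earlier results of these data known, so these counts describe the list and are not independent evidence of its direction.

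**Figure D1:**
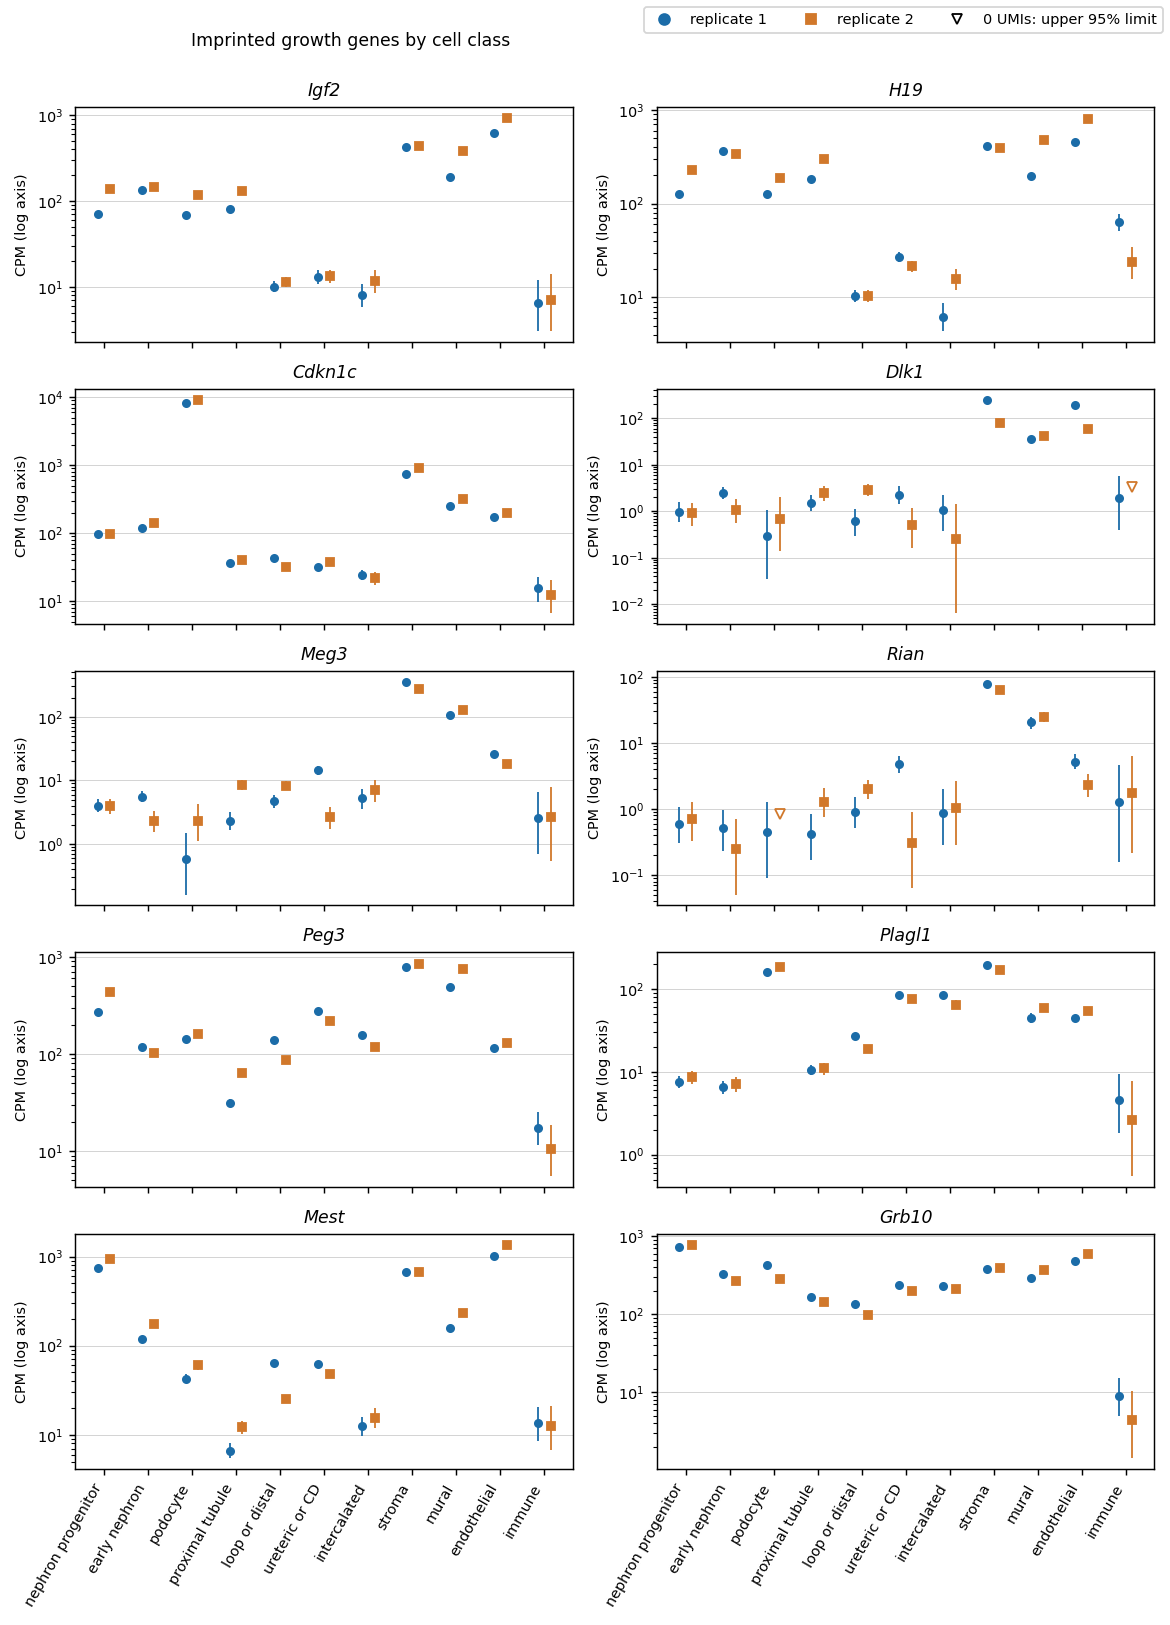
Level of each gene by cell class in CPM on a log axis, with a circle for replicate 1 and a square for replicate 2; bars are exact 95% Poisson intervals, which cover counting error only, and an open triangle is the upper limit where no UMI was counted. The podocyte-like points of Cdkn1c stand at 8251 and 9162 CPM, and the stroma-like points of Meg3 and Rian stand above those of every other class.

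**Figure D2:**
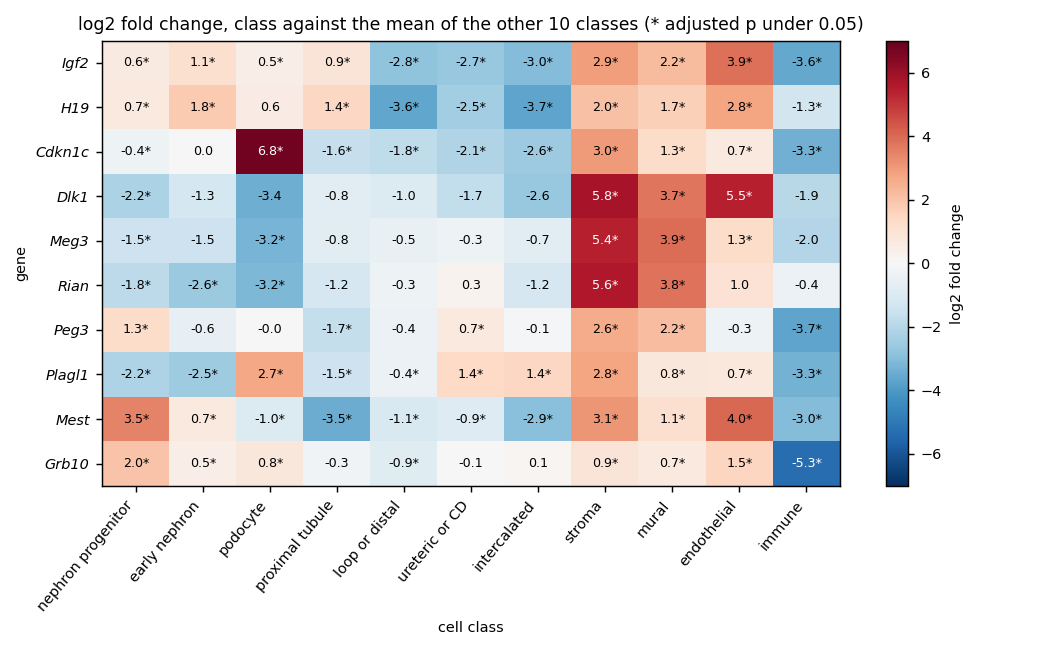
Fitted log2 fold change of each gene (rows) in each class (columns) against the mean of the other classes, red for higher and blue for lower; an asterisk marks an adjusted p under 0.05. All 10 genes are marked and red in the stroma and mural columns.

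Igf2, the fetal insulin-like growth factor that signals through Igf1r and is cleared by Igf2r, lies on the minus strand of chromosome 7 at chr7:142650766-142666816 (GRCm38). It stood highest in endothelial-like cells, with 628 CPM (replicate 1) and 919 CPM (replicate 2). Stroma-like cells held 425 and 437 CPM, and mural-like cells 193 and 386 CPM. The early nephron-like, nephron progenitor-like, proximal tubule-like and podocyte-like classes followed at 68.9 to 145 CPM, each overlapping the next in this order. In podocyte-like cells Igf2 came from few cells: the top 5% of cells held 74.1% and 66.9% of its UMIs, and 282 of 358 and 127 of 193 cells had none. Its call there (0.47, adjusted p = 0.019 by edgeR) was kept in 7 of 12 alternatives, and with classes from clusters the value was -0.28. A gap separated these from the ureteric or collecting duct-like, distal tubule-like, intercalated-like and immune-like classes, which held 6.46 to 13.4 CPM. In the class tests, Igf2 was 3.86 log2 units higher in endothelial-like cells (SE 0.12, adjusted p = 7.3e-14 by edgeR) and 2.93 higher in stroma-like cells (SE 0.12, adjusted p = 1.3e-11). Endothelial-like cells supplied 34.2% and 36.9% of all Igf2 UMIs in cells. The antisense gene Igf2os overlaps Igf2 exons, and no source used here says whether strand was used in counting.

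H19, a non-coding RNA of the same imprinted domain, lies at chr7:142575529-142578143 on the minus strand, and its start is 88.7 kb from that of Igf2. An exon of H19 holds the hairpin of miR-675 at chr7:142577064-142577147, whose mature RNAs (RefSeq, GRCm38.p6) are shown because the host RNA varied widely within the nephron; the seed, bases 2 to 8, is in capitals.
miR-675-5p: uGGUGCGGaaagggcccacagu
miR-675-3p: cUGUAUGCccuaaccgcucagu
The counts are of host transcripts and do not measure these mature RNAs. H19 stood at 455 and 808 CPM in endothelial-like cells, 411 and 389 CPM in stroma-like cells and 362 and 343 CPM in early nephron-like cells. Mural-like cells held 197 and 474 CPM, a range that takes in the early nephron-like values. Distal tubule-like cells held 10.4 and 10.3 CPM, and intercalated-like cells 6.26 and 15.6 CPM. H19 was 1.82 log2 units higher in early nephron-like cells (SE 0.25, adjusted p = 3.8e-05 by edgeR) and 3.64 lower in distal tubule-like cells (log2 fold change -3.64, SE 0.41, adjusted p = 5.9e-06).

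Igf2 and H19 followed each other across classes while their proportion changed. Over the 22 sums, Pearson's r of log2(CPM + 1) was 0.93, a description of sums that share libraries and depth; among 10472 genes H19 was the gene most like Igf2. The UMI ratio of Igf2 to H19 was 1.38 and 1.14 in endothelial-like cells and 1.04 and 1.12 in stroma-like cells. It was 0.377 and 0.422 in early nephron-like cells and 0.441 and 0.433 in proximal tubule-like cells. The values of the former classes did not overlap those of the latter. H19 of proximal tubule-like cells came from few cells: the top 5% held 74.6% and 56.4% of its UMIs, and 245 of 403 and 104 of 266 cells had none. In early nephron-like cells the top 5% held 45.8% and 46.5%. With 3'-end counts only the change of this ratio between classes is read, not its size. Among cells thinned to 3000 UMIs, H19 was found in 60.8% and 76.4% of mural-like cells with Igf2 and in 21.0% and 25.8% of those without. This gap was the widest of the classes compared. It was narrowest in nephron progenitor-like cells, at 32.4% and 46.0% against 21.1% and 31.2%.

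Within the nephron lineage, H19 differed widely between clusters, and Igf2 is given for a single cluster. These clusters were built without the imprinted growth genes and are described without a test. In the cluster led by Lhx1 and Wnt4, transcription and signalling genes of the first nephron structures, H19 stood at 704 and 923 CPM and Igf2 at 273 and 363 CPM. In the cluster led by Cited1 and Btbd11, with Six2 among its leading genes, H19 stood at 92.0 and 165 CPM. In the cluster led by Grid1, Osr2 and Cdh6, H19 held 356 and 712 CPM, and in that led by Sim2 and Spon1, with Irx1, 16.9 and 27.3 CPM. In both libraries the Sim2 cluster lay far below the others, while the Lhx1 and Osr2 clusters were separated by no more than the libraries of the Osr2 cluster were. Proximal tubule-like cells showed a like step: H19 stood at 220 and 274 CPM in the cluster led by Slc5a12 and Spp2, and at 7.67 and 34.2 CPM in the cluster led by Kap and Cyp2j5.

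Cdkn1c, which arrests cells in G1 and marks differentiated podocytes, lies at chr7:143458339-143461050 on the minus strand. Podocyte-like cells held 8251 and 9162 CPM. Stroma-like cells came next at 737 and 920 CPM, then mural-like cells at 249.6 and 323 CPM, endothelial-like cells at 171 and 198 CPM and early nephron-like cells at 120 and 140 CPM. The remaining classes held 12.4 to 99.1 CPM. The podocyte-like level was 6.77 log2 units above the mean of the other classes (SE 0.07, adjusted p = 1.3e-19 by edgeR) and the stroma-like level 2.99 (SE 0.08, adjusted p = 1.5e-14). Podocyte-like cells, 6.77% and 4.75% of cells, held 75.5% and 64.5% of all Cdkn1c UMIs in cells. A Cdkn1c UMI was found in 98.6% and 99.5% of podocyte-like cells (96.1% and 97.9% after thinning to 3000 UMIs; median depth 9253 and 14341 UMIs) and in 14.2% and 15% of immune-like cells (4.26% and 3.75% thinned; 9817 and 10056 UMIs). Barcodes with at most 100 UMIs, which hold free RNA, had Cdkn1c at 327 and 334 CPM. The part of free RNA in the immune-like detection was not tested. The antisense gene Gm44732 overlaps Cdkn1c exons.

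Stroma-like clusters differed in Cdkn1c, which stood at 1532 and 1872 CPM in that led by Nts, Lrriq1 and Penk and at 370 and 388 CPM in the Gdnf-containing cluster led by Gm32647. Mest showed the opposite order in these clusters, at 249 and 186 CPM against 989 and 1059 CPM. Cycling cells made up 4.65% and 5.17% of the Penk cluster and 18.2% and 16.4% of the Gdnf cluster, and the part of cell cycle state in this order was not tested.

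Grb10 lies on the minus strand at chr11:11930508-12038683. Outside immune-like cells it ranged from 97.5 to 764 CPM. Nephron progenitor-like cells held most, at 722 and 764 CPM, followed by endothelial-like cells at 478 and 595 CPM. Stroma-like cells held 383 and 390 CPM, podocyte-like cells 422 and 285 CPM and mural-like cells 295 and 367 CPM. The podocyte-like range overlapped both of the others, which did not overlap each other. Immune-like cells held 9.05 and 4.42 CPM, from 14 and 5 UMIs. In the class tests, Grb10 was 1.98 log2 units higher in nephron progenitor-like cells (SE 0.11, adjusted p = 4.6e-10 by edgeR) and -5.34 in immune-like cells (SE 0.27, adjusted p = 3.3e-11). Without the immune-like class, which pulls down the mean, Grb10 kept its call in nephron progenitor-like cells but lost it in podocyte-like (0.28, adjusted p = 0.073 by edgeR) and mural-like cells (0.16, adjusted p = 0.34), and in early nephron-like cells the value went from 0.48 to -0.05 (adjusted p = 0.78).

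Dlk1, Meg3 and Rian lie in order on the plus strand of chromosome 12, at chr12:109452823-109463336, chr12:109541001-109571726 and chr12:109603940-109661716. Dlk1 encodes a transmembrane protein related to Notch ligands that lacks the domain ligands use to activate the receptor, while Meg3 and Rian are non-coding RNAs. The promoter windows of Dlk1 and Meg3 are shown because both genes were called higher in stroma-like and mural-like cells; letters in capitals are TATAAA or its reverse complement, and the windows run 250 bases before to 50 after the start (RefSeq, GRCm38.p6, plus strand).
Dlk1 chr12:109452573-109452872: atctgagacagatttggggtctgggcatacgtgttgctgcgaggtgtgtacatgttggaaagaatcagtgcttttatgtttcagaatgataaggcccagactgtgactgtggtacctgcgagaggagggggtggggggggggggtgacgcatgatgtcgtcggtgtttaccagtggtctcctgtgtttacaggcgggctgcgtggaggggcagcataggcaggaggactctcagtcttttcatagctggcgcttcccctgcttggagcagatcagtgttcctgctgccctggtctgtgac
Meg3 chr12:109540746-109541045: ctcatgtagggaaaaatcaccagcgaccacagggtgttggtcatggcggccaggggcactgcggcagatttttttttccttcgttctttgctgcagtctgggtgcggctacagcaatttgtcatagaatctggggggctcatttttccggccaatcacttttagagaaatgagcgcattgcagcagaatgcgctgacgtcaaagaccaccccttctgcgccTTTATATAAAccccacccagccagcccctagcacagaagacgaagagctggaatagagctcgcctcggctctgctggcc
TATAAA, on either strand, is in 13.6% of 32817 promoter windows; it is in the Meg3 window, where its matches on the strands overlap, and not in the Dlk1 window. GCCATNTT, the core bound by Yy1, is in 6.04% of windows and in neither of these.

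Meg3 and Rian were highest in stroma-like cells, and Dlk1 was high in both stroma-like and endothelial-like cells. Meg3 stood at 348 and 272 CPM in stroma-like cells, 107 and 126 CPM in mural-like cells, and 26.2 and 18.2 CPM in endothelial-like cells. Elsewhere it held 0.590 to 14.5 CPM. Rian stood at 79.0 and 63.3 CPM in stroma-like cells and 20.5 and 24.6 CPM in mural-like cells, and at no more than 5.24 CPM elsewhere. Dlk1 stood at 241 and 80.6 CPM in stroma-like cells, 195 and 58.2 CPM in endothelial-like cells and 35.8 and 41.0 CPM in mural-like cells, and at no more than 2.90 CPM elsewhere. In stroma-like cells the log2 fold changes against the other classes were 5.43 for Meg3 (SE 0.31, adjusted p = 1.3e-08 by edgeR), 5.62 for Rian (SE 0.31, adjusted p = 2.4e-09) and 5.80 for Dlk1 (SE 0.36, adjusted p = 3e-08). Barcodes with at most 100 UMIs, which hold free RNA, had Meg3 at 70.0 and 31.7 CPM, Rian at 15.5 and 8.10 CPM and Dlk1 at 37.1 and 18.4 CPM. Haemoglobin counts put the free RNA share of the sums at 0.436% to 7.52%, and its part in the low values of the other classes was not tested.

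The proportion of Rian to Meg3 was steady where both were abundant, and that of Dlk1 to Meg3 was not. The UMI ratio of Rian to Meg3 was 0.227 and 0.233 in stroma-like cells and 0.192 and 0.195 in mural-like cells. The ratio of Dlk1 to Meg3 was 0.694 and 0.296 in stroma-like cells, 0.335 and 0.326 in mural-like cells and 7.44 and 3.20 in endothelial-like cells. Over the 22 sums, Pearson's r was 0.97 for Meg3 with Rian and 0.88 for Dlk1 with Meg3, again as a description. Among stroma-like cells thinned to 3000 UMIs, Rian was found in 27.8% and 23.5% of cells with Meg3 and in 7.07% and 6.14% of cells without.

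A small cluster carried most of the stroma-like Dlk1. It was led by Mfap5, Clec3b, Postn and Dcn, matrix genes of fibroblasts, and held 69 and 27 of the stroma-like cells. Dlk1 stood there at 2097 and 1248 CPM, against 14.3 and 22.3 CPM in the other stroma-like cells. Meg3 stood at 1922 and 1819 CPM against 155 and 195 CPM, and Rian at 456 and 425 CPM against 32.9 and 45.3 CPM. All 10 genes were higher in this cluster than outside it in both libraries. The gap was widest for Dlk1 in both. It was smallest for Peg3 in replicate 1, with 1016 and 1582 CPM against 767 and 810 CPM, and for Cdkn1c in replicate 2, with 2101 and 1342 CPM against 570.3 and 899 CPM. Igf2 stood at 1404 and 1129 CPM against 305 and 402 CPM, and Plagl1 at 633 and 719 CPM against 140 and 142 CPM. Cycling cells made up 7.25% and 0% of the cluster, against 23.5% and 15.8% of the other stroma-like cells. Summed adrenal cortex markers stood at 4.07 and 2.47 CPM inside and at 2.16 and 1.85 CPM outside. Since the cluster was chosen after its genes were seen, these values carry no test.

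**Figure D3:**
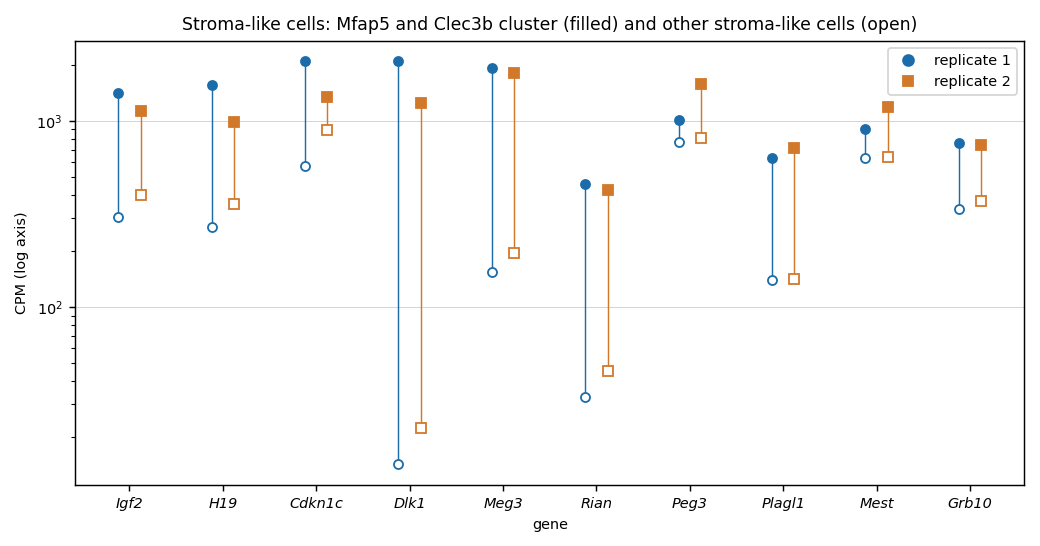
Level of each gene in CPM on a log axis in the Mfap5 and Clec3b cluster of stroma-like cells (filled) and in the other stroma-like cells (open), circles for replicate 1 and squares for replicate 2. Every filled point lies above its open partner, with the widest gap for Dlk1.

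With that cluster left out, an alternative chosen after seeing the data, all 10 genes were still called higher in stroma-like cells. The log2 fold change fell to 2.80 for Dlk1 (adjusted p = 0.00044 by edgeR), 4.61 for Meg3 (adjusted p = 1.2e-07) and 4.76 for Rian (adjusted p = 7.9e-08).

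Endothelial-like Dlk1 came from few cells. The 21 cells of replicate 1 and 7 of replicate 2 with at least 5 Dlk1 UMIs held 99.0% and 98.8% of the UMIs of this gene in the class. In these cells Ehd3, a gene of glomerular endothelium, stood at 1609 and 1019 CPM, against 123 and 114 CPM in the other endothelial-like cells. Gata5 stood at 135 and 68.0 CPM against 9.50 and 7.20 CPM, and Plvap, which marks fenestrated peritubular capillaries, at 65.8 and 231 CPM against 526 and 878 CPM. Rtl1, a retrotransposon-derived gene that lies between Meg3 and Rian on the other strand, stood at 269 and 47.4 CPM against 1.21 and 0.553 CPM. Summed endothelial markers stood at 9037 and 7469 CPM, and Pdgfra, a stroma marker, at 0 and 8.24 CPM. Summed podocyte markers stood at 457 and 369 CPM against 187 and 163 CPM, and median depth was 16233 and 46627 UMIs against 10582 and 13037 UMIs. Whether some of these droplets held more than a single cell was not tested. Summed mural markers reached 552 CPM in replicate 2 and 7.52 CPM in replicate 1. The cells were chosen by Dlk1 itself, so these values are a description. Without them, also chosen after seeing the data, the endothelial-like log2 fold change of Dlk1 went from 5.45 (adjusted p = 3.9e-08 by edgeR) to -0.995 (adjusted p = 0.33), a fall fixed by that choice. The call of Meg3 was lost, from 1.30 (adjusted p = 0.024 by edgeR) to 0.79 (adjusted p = 0.19).

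Peg3, a zinc finger protein, lies on the minus strand at chr7:6703892-6730431, and Usp29 starts 147 bases from it on the other strand. Peg3 stood at 794 and 846 CPM in stroma-like cells, 489 and 746 CPM in mural-like cells, 274 and 437 CPM in nephron progenitor-like cells and 279 and 218 CPM in ureteric or collecting duct-like cells. Proximal tubule-like cells held 31.2 and 64.1 CPM and immune-like cells 17.4 and 10.6 CPM, the lowest values. It was called higher in stroma-like (2.62, SE 0.18, adjusted p = 4e-08 by edgeR), mural-like (2.17, SE 0.19), nephron progenitor-like (1.30, SE 0.20) and ureteric or collecting duct-like cells (0.67, SE 0.22), and lower in proximal tubule-like and immune-like cells. In the stroma-like cluster led by Clca3a1 and Igfbp3, Peg3 reached 1546 and 1717 CPM. The Peg3 promoter window is shown because Plagl1, described next, is a transcription factor; capitals mark GGGGCCCC, the core that Plagl1 is known to bind, which reads the same on both strands (RefSeq, GRCm38.p6, minus strand).
Peg3 chr7:6730370-6730669: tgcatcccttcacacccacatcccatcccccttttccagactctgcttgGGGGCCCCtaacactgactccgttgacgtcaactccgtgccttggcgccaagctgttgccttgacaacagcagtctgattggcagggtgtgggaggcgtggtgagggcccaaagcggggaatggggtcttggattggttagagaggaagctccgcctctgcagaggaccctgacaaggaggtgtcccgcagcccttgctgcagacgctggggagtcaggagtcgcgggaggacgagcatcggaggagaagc
GGGGCCCC is in 1.07% of the 32817 windows. Windows of 8 of the 10 genes were searched, without H19 and Cdkn1c, and among them the Peg3 window alone held it, and a match of letters is not evidence of binding.

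Plagl1, a zinc finger transcription factor that slows the cell cycle, lies on the plus strand at chr10:13060504-13131694. Its pattern differed from that of Peg3. Plagl1 stood at 194 and 170 CPM in stroma-like cells and 160 and 185 CPM in podocyte-like cells, ranges that overlapped. Ureteric or collecting duct-like cells held 84.9 and 74.6 CPM and intercalated-like cells 83.3 and 64.1 CPM. Nephron progenitor-like cells held 7.52 and 8.62 CPM and early nephron-like cells 6.47 and 7.06 CPM. All 11 class tests of Plagl1 passed, 6 higher and 5 lower, with log2 fold changes from -3.30 in immune-like cells to 2.76 in stroma-like cells (SE 0.10, adjusted p = 7.4e-13 by edgeR).

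Mest, an enzyme of the alpha/beta hydrolase family, lies on the plus strand at chr6:30723547-30748465, and the opposite-strand gene Copg2 overlaps its exons. Mest stood at 1025 and 1336 CPM in endothelial-like cells, 741 and 933 CPM in nephron progenitor-like cells and 663 and 665 CPM in stroma-like cells. Mural-like cells held 158 and 234 CPM and early nephron-like cells 118 and 176 CPM. Proximal tubule-like cells held 6.63 and 12.1 CPM, the lowest values, beside 13.6 and 12.4 CPM in immune-like cells. All 11 class tests passed, with 5 higher and 6 lower. The nephron progenitor-like log2 fold change was 3.45 (SE 0.20, adjusted p = 9.3e-09 by edgeR) and the proximal tubule-like was -3.45 (SE 0.36, adjusted p = 1.9e-06).

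Direct comparisons followed the nephron and the interstitium. From nephron progenitor-like to proximal tubule-like cells, Mest (log2 fold change -6.28, SE 0.44, adjusted p = 3.5e-08 by edgeR), Peg3 (-2.69, SE 0.33, adjusted p = 6.3e-06), Grb10 (-2.04, SE 0.18, adjusted p = 4.4e-08) and Cdkn1c (-1.10, SE 0.14, adjusted p = 3.2e-06) were lower. Plagl1 was higher (0.64, SE 0.19, adjusted p = 0.0064), a call lost with classes taken from clusters (adjusted p = 0.22). These 5 of 10 calls compare with 62.7% of all genes. From early nephron-like to podocyte-like cells, Cdkn1c (6.12, SE 0.17, adjusted p = 9.2e-13) and Plagl1 (4.72, SE 0.19, adjusted p = 1.6e-11) were higher, and Mest (-1.48, SE 0.37, adjusted p = 0.0039), H19 (-1.14, SE 0.39, adjusted p = 0.027) and Igf2 (-0.59, SE 0.20, adjusted p = 0.023) were lower, 5 of 10 against 53.5%. Without the replicate block 3 were called, and the calls of H19 and Igf2 were lost. The top 5% of podocyte-like cells held 85.8% and 84.3% of the H19 UMIs of that class, and 281 of 358 and 140 of 193 cells had none.

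Stroma-like cells exceeded nephron progenitor-like cells in 8 genes, and Grb10 was lower (-0.96, SE 0.18, adjusted p = 0.0003 by edgeR), 9 of 10 against 42.9% of all genes. The log2 fold changes were 7.30 for Dlk1, 6.75 for Rian, 6.26 for Meg3, 4.48 for Plagl1, 3.06 for Cdkn1c, 2.10 for Igf2, 1.22 for H19 and 1.20 for Peg3. Mest did not pass, at -0.34 (SE 0.34, adjusted p = 0.47). Mural-like cells, the pericytes and smooth muscle of vessels, were lower than stroma-like cells in 6 genes, against 11.2% of all genes called and 5.45% called lower. Mest (-1.78, SE 0.35, adjusted p = 0.0049 by edgeR), Cdkn1c (-1.53, SE 0.14, adjusted p = 1.5e-06) and Plagl1 (-1.80, SE 0.17, adjusted p = 1.8e-06) kept the call under all 12 alternatives run. Rian (-1.63, adjusted p = 0.037), Dlk1 (-1.88, adjusted p = 0.047) and Igf2 (-0.65, adjusted p = 0.047) did not, and without the Mfap5 and Clec3b cluster the value of Dlk1 was 1.04 (adjusted p = 0.33). For Igf2, replicate 2 alone gave -0.16 and replicate 1 alone -1.11.

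**Figure D4:**
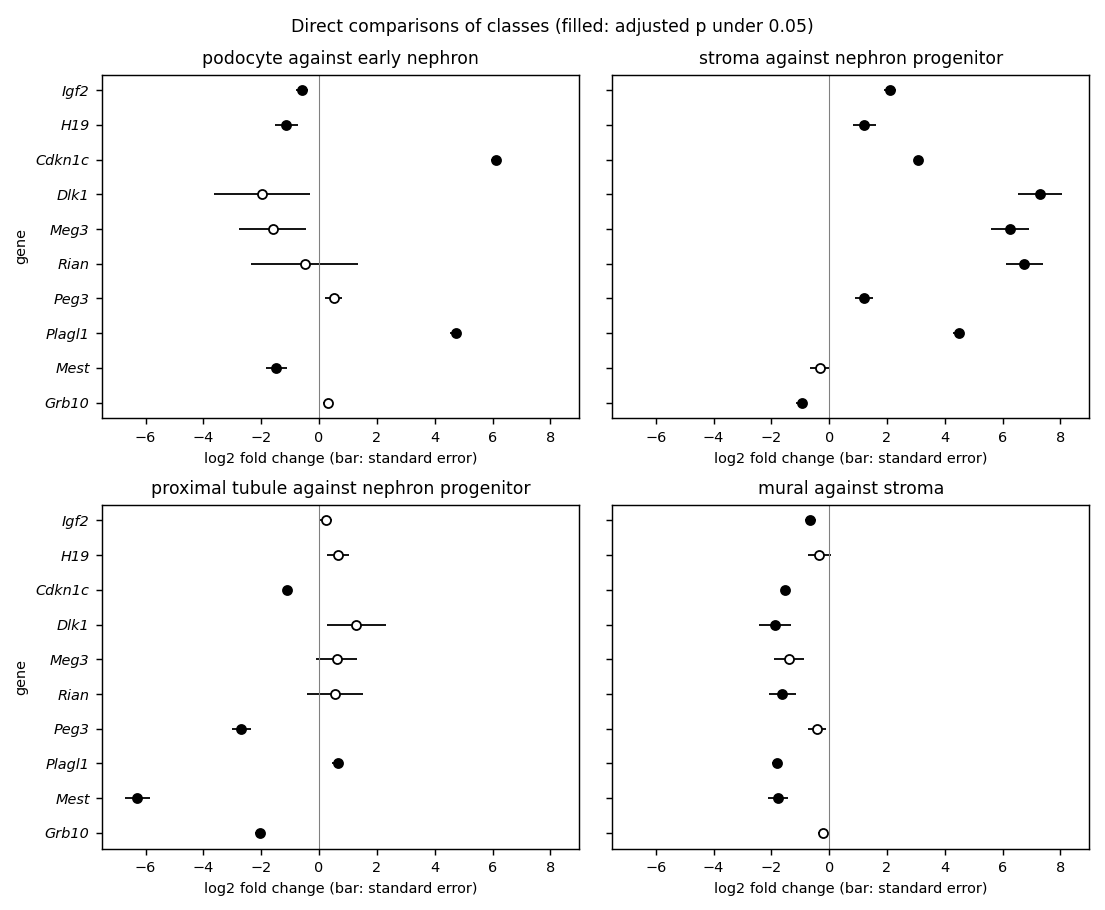
Fitted log2 fold change of each gene in 4 direct comparisons of classes, with bars of 1 standard error; filled points have an adjusted p under 0.05. Cdkn1c and Plagl1 lie far to the right in podocytes against early nephron, and Mest far to the left in proximal tubule against nephron progenitors.

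Cycling cells, those with at least 3 UMIs over 15 cell cycle genes after thinning to 3000 UMIs, were compared with other cells of the same class. In stroma-like cells, with 125 and 77 cycling cells, Cdkn1c stood at 342 and 281 CPM in cycling cells and at 879 and 1099 CPM in the others. Meg3 stood at 144 and 98.2 CPM against 421 and 321 CPM, and Rian at 35.3 and 25.8 CPM against 94.6 and 73.9 CPM. The values in cycling cells lay below those of the other cells in both libraries for each of these genes. Cycling cells were unevenly spread over the stroma-like clusters, with 4.65% and 5.17% in the Penk cluster, high in Cdkn1c, and 99.3% and 99.0% in a histone gene cluster that held Cdkn1c at 216 and 218 CPM; the part of this spread in the result was not tested. The log2 fold changes were -1.73 for Cdkn1c (SE 0.14, adjusted p = 1e-05 by edgeR over 14027 genes), -1.68 for Meg3 (SE 0.11, adjusted p = 5e-08) and -1.53 for Rian (SE 0.17, adjusted p = 1.4e-05). Dlk1 (-1.91), Plagl1 (-0.47) and Grb10 (-0.35) were also lower, which made 6 of 10, against 18.2% of all genes called and 10.5% called lower. Without the Mfap5 and Clec3b cluster, the values of Dlk1 (-0.09), Plagl1 (-0.04) and Grb10 (-0.20) no longer passed, Cdkn1c (-1.70), Meg3 (-1.19) and Rian (-1.18) did, and Mest passed as higher in cycling cells (0.41, adjusted p = 0.036). Median depth was 13531 and 19657 UMIs in cycling stroma-like cells and 10633 and 14784 UMIs in the others.

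In nephron progenitor-like cells, with 128 and 60 cycling cells, none of the 10 genes passed edgeR's test, against 4.06% of all genes called and 0.549% called lower. The cycling fit held fewer sums than the class fit, so an absent call does not show equal levels. At an unadjusted p under 0.05, 4 passed, all lower: Meg3, Mest, Grb10 and Cdkn1c. Without a filter on low counts 4 were called, and DESeq2 called none. Cdkn1c stood at 89.7 and 76.6 CPM in cycling cells and at 99.4 and 107 CPM in the others. H19 stood at 189 and 311 CPM in cycling cells and at 99.3 and 198 CPM in the others (0.75, SE 0.33, adjusted p = 0.45). The difference between the stroma-like and nephron progenitor-like responses was not tested.

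**Figure D5:**
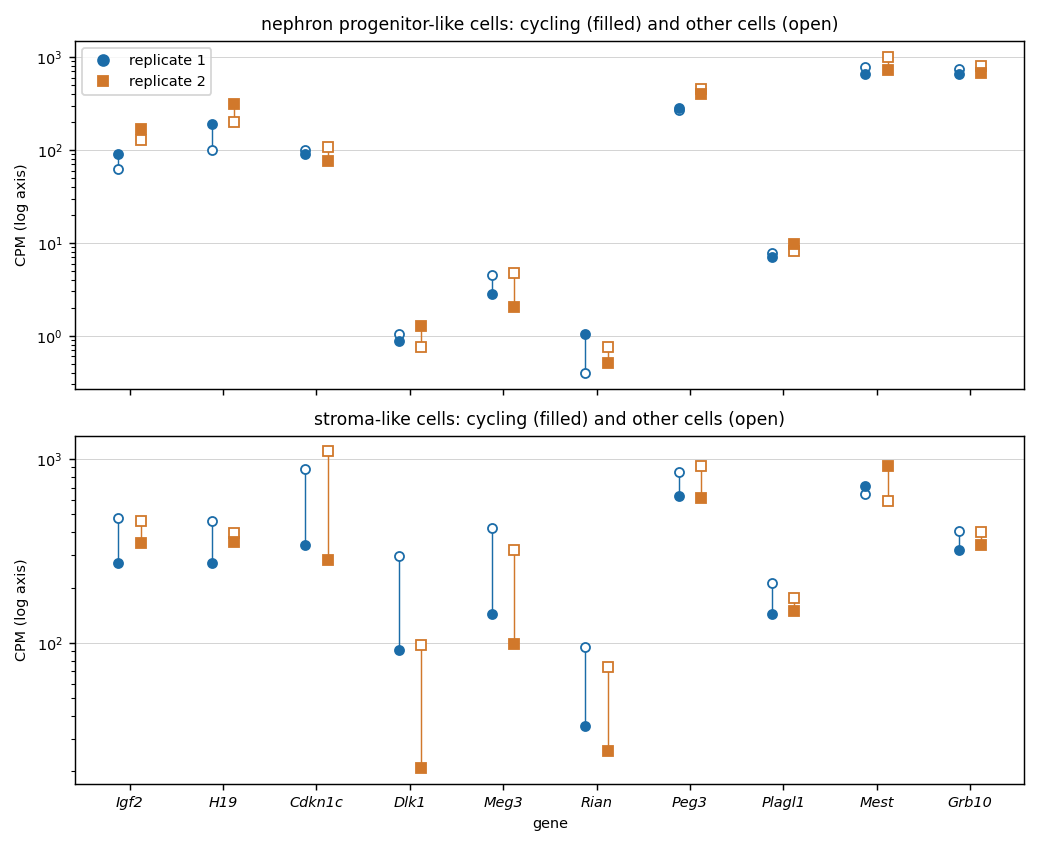
Level of each gene in CPM on a log axis in cycling (filled) and other cells (open) of the nephron progenitor-like class (top) and the stroma-like class (bottom), circles for replicate 1 and squares for replicate 2. In the stroma panel the filled points of Cdkn1c, Dlk1, Meg3 and Rian lie well below the open points in both libraries.

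The libraries differed by at least 1.5-fold in 28 of the 91 gene-by-class pairs with at least 50 UMIs, against 12% of all such pairs. Replicate 2 was higher in 18 of these, against 4.76% of all pairs, and lower in 10, against 7.25%. With 1 library on each side this has no test. Igf2 was higher in replicate 2 in nephron progenitor-like, podocyte-like, proximal tubule-like and mural-like cells, and H19 in endothelial-like, intercalated-like, nephron progenitor-like, proximal tubule-like and mural-like cells. H19 was lower in replicate 2 in immune-like cells. Dlk1 was lower in replicate 2 in stroma-like, endothelial-like and early nephron-like cells, and higher in distal tubule-like and proximal tubule-like cells, where its levels were at most 2.90 CPM. The other differences were in Peg3, Meg3, Rian and Mest, in both directions. The Mfap5 and Clec3b cluster, which carried stroma-like Dlk1, held 69 of 580 stroma-like cells in replicate 1 and 27 of 514 in replicate 2. Depth moved with the libraries, with median UMIs of 15016 and 20007.5 over all cells that passed before doublet removal, and its part in these differences was not tested.

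A list of other imprinted genes was examined in the same way. Of 45 on the list, 44 were listed and 41 tested, and 251 of their 451 class tests passed, with 145 higher and 106 lower, which is 55.7% against 48.8% of all gene-by-class tests. In stroma-like cells 30 of the 41 passed, 25 higher and 5 lower, against 48.4% of all genes, and their median log2 fold change was 0.74. Dcn, a matrix proteoglycan imprinted in placenta, was highest there, at 804 and 615 CPM (log2 fold change 8.18, SE 0.08, by edgeR). Calcr, the calcitonin receptor, stood at 57.6 and 26.2 CPM in intercalated-like cells and at a mean of 1.30 and 0.399 CPM in the other classes. Slc38a4, an amino acid transporter, and Zdbf2 had no UMI in either immune-like sum, where a floor of 3 UMIs is 1.94 and 2.65 CPM, and means of 30.4 and 24.3 CPM and of 14.7 and 17.7 CPM in the other classes.

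The nearest imprinted neighbours of these genes, chosen after their values had been seen, are given next. Zim1 and Usp29, beside Peg3, were higher in stroma-like cells, though not only there. Zim1 was 5.07 log2 units higher (SE 0.22, adjusted p = 1.1e-10 by edgeR), at 114 and 99.1 CPM. Usp29 was 2.02 higher (SE 0.24, adjusted p = 4.5e-06 by edgeR), at 26.8 and 26.4 CPM. Zim1 was also called higher in mural-like (4.16) and nephron progenitor-like cells (2.08). Usp29 was also called higher in nephron progenitor-like (2.04, at 20.7 and 33.0 CPM), mural-like (1.38) and early nephron-like cells (0.91). Mirg, which follows Rian, stood at 12.4 and 7.28 CPM in stroma-like cells and 3.60 and 3.12 CPM in mural-like cells. Rtl1 was highest in endothelial-like cells among the classes, at 13.8 and 2.56 CPM, but this rested on few cells. The 21 and 7 Dlk1-rich cells held 143 and 23 of its UMIs there, and the other endothelial-like cells 13 and 6. Those other cells stood at 1.21 and 0.553 CPM, and stroma-like cells at 2.07 and 0.705 CPM. Stroma-like Rtl1 rested on 9 and 1 UMIs in the Mfap5 and Clec3b cluster and 5 and 5 outside it. Outside that cluster it stood at 0.830 and 0.617 CPM, so no order of these classes is read.

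Genes that act on IGF signalling were spread over the classes. All 19 were tested and 152 of 209 class tests passed, with 87 higher and 65 lower, which is 72.7% against 48.8%. Igf1, the other IGF ligand, was highest in endothelial-like cells at 289 and 320 CPM (5.66, SE 0.11), and Igfbp3, a binding protein that limits IGF availability, was higher in stroma-like cells at 191 and 320 CPM (5.34, SE 0.14). Pappa2, a protease of IGF binding proteins, stood at 544 and 224 CPM in distal tubule-like cells, the class that also takes in the loop of Henle. Within that class, Pappa2 was among the leading genes of a cluster with Slc12a1 and Cldn16. Igfbp1 stood highest, with 14.3 and 7.54 CPM, in proximal tubule-like cells. The receptors, named after their values had been seen, were called in more classes: Igf1r was higher in podocyte-like cells, at 709 and 513 CPM (0.98, SE 0.15), and Igf2r in endothelial-like cells, at 114 and 117 CPM (1.19, SE 0.14), and mural-like cells, at 123 and 113 CPM (1.17, SE 0.14). Igf1r was also called higher in early nephron-like (0.44) and nephron progenitor-like cells (0.46). In proximal tubule-like cells its call was at the threshold (0.38, adjusted p = 0.0499 by edgeR). Igf2r was also called higher in proximal tubule-like (0.88) and stroma-like cells (0.74). Both were called lower in immune-like cells, Igf1r also in intercalated-like cells, and Igf2r also in the ureteric or collecting duct-like and nephron progenitor-like classes.

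Relatives of these genes, from the same protein families, were examined as well. Of 7 genes, all tested, 49 of 77 class tests passed, 26 higher and 23 lower, which is 63.6% against 48.8%. Cdkn1a (p21), of the same inhibitor family as Cdkn1c, stood at 149.6 and 133 CPM in cells of the proximal tubule-like class (3.58, SE 0.21, adjusted p = 3.5e-09 by edgeR) and at 1.18 and 6.96 CPM in podocyte-like cells, where it was lower (-2.48, SE 0.47, adjusted p = 0.00057). Grb14, an adaptor related to Grb10, held 1.48 and 3.25 CPM in podocyte-like cells (-3.75, SE 0.26). Grb7 was higher in ureteric or collecting duct-like cells at 65.9 and 56.2 CPM (3.57, SE 0.19), and Dlk2 was highest in podocyte-like cells at 3.40 and 2.78 CPM.

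The genes whose levels over the 22 sums were most like those of each gene were found by Pearson's r of log2(CPM + 1) among genes with a mean of at least 10 CPM. They were H19 (0.93), Sparc (0.93) and Jam3 (0.92) for Igf2, and Igf2, Adgra2 (0.88) and Tfpi (0.88) for H19. Cdkn1c was most like Pard3bos1 (0.96), Zbtb8a (0.95) and Zbtb7c (0.94), and Plagl1 most like Tmtc1 (0.95), Tgfbr3 (0.90) and Lamb2 (0.89). Dlk1 was most like Gm43507 (0.96), Ldb2 (0.95) and Fbln5 (0.95). Meg3 was most like Epha3 (0.96), Thbs2 (0.95) and Gria4 (0.95), genes that also followed Rian apart from Thbs2. Peg3 was most like Stx1a (0.92), Ror2 (0.92) and Gulp1 (0.92), Mest most like Dchs1 (0.95), Fscn1 (0.94) and Ramp2 (0.93), and Grb10 most like Dmwd (0.96), Zfp507 (0.96) and Jmy (0.95).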

How the data were processed

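Single-cell RNA sequencing was made from 2 suspensions of kidney cells on a Chromium instrument, per the labels' protocols. The authors deposited raw UMI counts per gene and barcode, not normalized and not filtered for cells. They were made with Cell Ranger on build mm10; the file header gives version 4 and the submitters' processing notes give 6.0.1. Strand use in counting is not given in the sources used here.

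Kept barcodes had 3000 UMIs or more, 500 genes or more and a mitochondrial share of 20% or less. The cells with the highest Scrublet scores were removed, 244 and 141 per library. Cells were classed by the mean z-scored level of 100 markers for 16 classes, with a score of at least 0.5, a lead of at least 0.3 over the next class and at least 2 markers detected. Clusters were made with Leiden in scanpy 1.11.5 and igraph 0.11.9 without the 10 genes. Counts were summed over 11 classes and 2 libraries, and tested in R 4.3.3 with edgeR 4.0.16 (trimmed-mean scaling, filterByExpr, robust quasi-likelihood fit, class means with the library as a block, 10 residual degrees of freedom, p-values two-sided and adjusted by Benjamini-Hochberg at 0.05). The contrast for a class took the other 10 with equal weight on the log scale. The cycling comparisons came from a separate fit of nephron progenitor-like and stroma-like sums split by cycling state. That fit held fewer sums and left fewer residual degrees of freedom. The fit was run on simulated counts with the same spread for all genes and changes in stroma-like cells only. That setting is simpler than these data, so it does not measure the error of the calls reported here. Same-numbered sums share a library, and so a suspension, which is the origin of the block; the numbers themselves are only names. Gating markers were left out of the tests. Depth was 200331687 and 173166168 UMIs per library; intervals cover counting error only.

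The 10 genes and all gene lists were chosen with earlier results of these data known. From each list at most 4 genes were named, those with the largest absolute log2 fold change in any class among genes past the threshold with at least 50 UMIs, and for each of the 10 genes the 3 most correlated genes; genes named outside this rule are marked as such. Alternatives covered UMI minimum, doublets, gate, clusters, scaling, DESeq2 1.42.0, filter, block, free RNA, classes fitted and each library left out.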

Additional observations from a re-analysis of the deposited data

How the results depend on the processing

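Counts of the 10 genes called ranged from 71 to 87 over 12 settings for the class tests (81 as reported), from 8 to 9 for stroma-like against nephron progenitor-like cells, stayed at 5 for proximal tubule-like against nephron progenitor-like cells, and ranged from 4 to 8 for cycling stroma-like cells (6 as reported). The 5 were not the same genes in every setting, since Plagl1 lost its call with classes from clusters. Of mural-like against stroma-like calls, 6 as reported, 3 remained in number with DESeq2's Wald test, with no filter on low counts, with no replicate block, with free RNA subtracted, and without the Mfap5 and Clec3b cluster. With no filter on low counts 4 genes were called in cycling nephron progenitor-like cells, against 0 as reported. The direction turned for Grb10 in early nephron-like cells without the immune-like class (-0.053). With classes from Leiden clusters it turned for Igf2 in podocyte-like cells (-0.28). For Dlk1 it turned in mural-like against stroma-like cells without the Mfap5 and Clec3b cluster (1.04). It also turned for Dlk1 in endothelial-like cells without Dlk1-rich cells (-0.995). Those cells were picked by their Dlk1 counts, so the fall of Dlk1 without them was fixed by that choice. For the other turns the cause was not tested. Leaving out the Mfap5 and Clec3b cluster and the Dlk1-rich cells were alternatives chosen after seeing the data.

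Without the replicate block, which pairs the sums of a library, 81 class tests passed, 3 genes were called in podocyte-like against early nephron-like cells (5 as reported), 8 in stroma-like against nephron progenitor-like cells, 5 in proximal tubule-like against nephron progenitor-like cells, 0 in cycling nephron progenitor-like cells and 4 in cycling stroma-like cells. Leaving out either library left no residual degrees of freedom, so it gave values with no test. Depth limits the low values most: a floor of 3 UMIs is 1.94 and 2.65 CPM in immune-like cells.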
